A study of Saccharomyces cerevisiae with 8 samples.

Results

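The autophagy genes of the yeast Saccharomyces cerevisiae described here are 32 genes with an ATG name, chosen as a list of standard gene names and found by their systematic names among the 6170 gene identifiers of the expression tables. All 32 were found and all 32 passed the filter on low counts, which kept 5921 genes. They were divided by role into 20 genes of the core machinery, 10 selective factors and 2 genes that act in the vacuole. Messenger RNA was sequenced to ask how expression after glucose is used up differs from expression on xylose alone, in XH7 and BSGX001, a pair of strains engineered to ferment xylose.

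Autophagy encloses cytoplasm or organelles in a double membrane, the autophagosome, and delivers them to the vacuole for breakdown. The Atg1 kinase complex starts the process, Atg9 vesicles and a phosphatidylinositol 3-kinase build the membrane, and the ubiquitin-like proteins Atg8 and Atg12 are conjugated to let it grow. Selective receptors tie a given cargo, such as mitochondria, peroxisomes or the enzyme precursors of the cytoplasm-to-vacuole targeting (Cvt) pathway, to Atg8 on the membrane, and nutrient-rich cells of yeast hold autophagy down through the TORC1 kinase and through repressors of ATG transcription.

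Each of 4 groups had 2 samples from duplicate fermentations, 8 in all. GX stage cells were sampled 14 h into co-fermentation of glucose and xylose, each supplied at 20 g/L. X stage cells were sampled 12 h into fermentation of xylose alone, also at 20 g/L. XH7 carries xylose isomerase inserted at PHO13 and at delta sequences, pentose phosphate pathway genes inserted at GRE3 and added xylulokinase. BSGX001 carries the isomerase Ru-XI, added xylulokinase, the same kind of insertion at GRE3 and a deletion of COX4. Both strains were adapted by evolution on xylose. The labels give CEN.PK113-5D as the parent of both, whereas the study describes XH7 as diploid and derived from a wild isolate. The stages differ in hour, sugar history and growth together, and these cannot be told apart. The same holds between the strains for parent, ploidy and alterations.

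Library totals lay between 5279864 and 7675099 counts, and a member had between 21 and 3404 counts in a library. COX4 had 0 counts in all 4 BSGX001 libraries and 1186 to 2680 in XH7. GRE3 still had 145 to 492 counts in every library, and PHO13 had 245 to 388 in XH7, although both are labelled as insertion sites. Of 11 genes that a/alpha diploid cells switch off, all 11 were lower in XH7 at both stages, with a median log2 difference of -4.91 at the X stage. Reads were counted against genes named for CEN.PK113-7D, and the total mRNA per cell was not measured.

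Levels of the members can be set beside each other per length, as FPKM (fragments scaled by the authors to gene length and library total). The median member had 36.1 FPKM at the GX stage of XH7 and 28.4 at its X stage, with 63.8 at the GX stage of BSGX001 and 39.9 at its X stage. Over all genes the medians were 53.2 and 44.9 FPKM in XH7 (GX, then X) and 59.5 and 55.8 FPKM in BSGX001 in the same order. The members thus lay below the median gene in 3 of the 4 groups and above it only at the GX stage of BSGX001. ATG8, the ubiquitin-like protein that coats the growing membrane, was the highest member in XH7, at 376 ± 47.1 FPKM at the GX stage and 119 ± 25.3 at the X stage (SD, n = 2 each). In BSGX001 it had 356 ± 4.62 FPKM at the GX stage, against 142 ± 22.6 at the X stage. ATG19, the Cvt receptor, was the highest member in BSGX001, at 383 ± 5.82 FPKM at the GX stage and 232 ± 42.7 at the X stage, but had only 61.2 ± 4.13 and 65.5 ± 2.67 FPKM at those stages of XH7. The lowest means were those of ATG16 at the X stage of XH7, 8.87 ± 1.31 FPKM, and of ATG14 at its GX stage, 9.37 ± 2.23 FPKM. Within a group the highest member stood 13.4 to 40.2 times above the lowest.

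**Figure D1:**
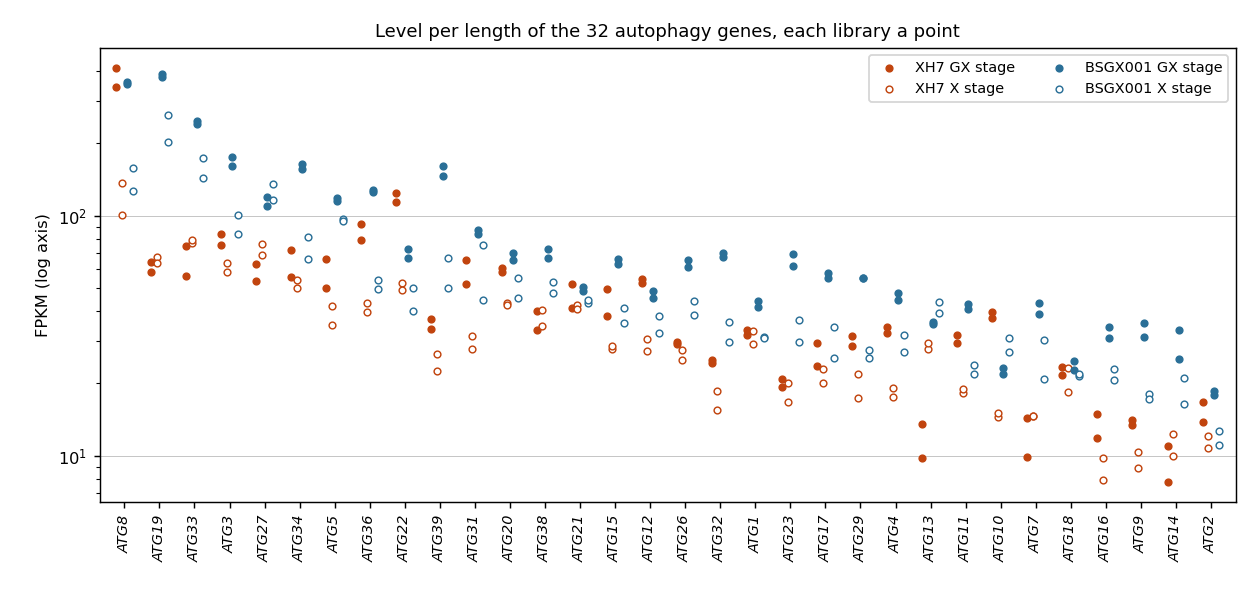
FPKM of each of the 32 autophagy genes on a log axis, 1 point per library, with XH7 in orange and BSGX001 in blue and the GX stage filled and the X stage open. Genes run from the highest mean to the lowest, from ATG8 and ATG19 to ATG14 and ATG2, and for ATG19 the BSGX001 points stand far above those of XH7.

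All 32 members were searched for motifs of factors known to act on ATG genes in yeast, in the 300 bases before the start codon of the RefSeq R64 reference of strain S288C, read on both strands. The URS1 core GCCGCC, bound by the repressor Ume6, was found before 2 members of 32, ATG8 and ATG19, and before 5.2% of 6001 genes. The stress element AGGGG, read by Msn2, Msn4 and the repressor Rph1, was found before 10 members and before 22.2% of all genes. GATAAG, the site of the GATA factors of nitrogen control, was found before 11 members and before 14.7% of all genes, and TGACTC, the site of Gcn4, before 4 members and 7.77% of all genes. ATG8 held all 4 motifs, and 16 members held none. The following windows, from members with high levels or large stage changes, were picked after those values were known and are printed in the reading direction of the gene with the motif in capitals.
ATG8, URS1 core on the opposite strand, chrII:80849-80874, minus strand: ggttattttcGGCGGCggcaaaaata
ATG8, stress element, chrII:80785-80809, minus strand: aaggttgaggAGGGGattgataaga
ATG19, URS1 core on the opposite strand, chrXV:168674-168699, plus strand: aggtaattgcGGCGGCacttgcttca
ATG19, stress element, chrXV:168547-168571, plus strand: gacccggaaaAGGGGcgtgtgacat
ATG32, GATA motif, chrIX:75820-75845, minus strand: ttctcttatcGATAAGcaatattgaa
ATG39, GATA motif on the opposite strand, chrXII:759069-759094, minus strand: gcgacagctgCTTATCaaggtacctg
The URS1 core of ATG8 lay 128 bases before the start codon and overlapped a second match, and that of ATG19 lay 38 bases before it. In ATG32 the motif stood directly beside its own reverse complement. These letters are those of the reference strain, and a match is a description of the window only.

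Comparing the GX stage with the X stage, 10 members rose and 3 fell in XH7, and 25 rose and 0 fell in BSGX001 (edgeR quasi-likelihood test, Benjamini-Hochberg adjusted p of 0.05 or less). Over all genes tested, 26.7% rose and 22% fell in XH7, so the members' share that rose there was near the background. In BSGX001, 23% of all genes rose and 24.7% fell. The median log2 change of the members was 0.24 in XH7 and 0.62 in BSGX001, where the median gene changed by 0.04 and -0.02. Of the rises, 3 in XH7 and 6 in BSGX001 were 2-fold or more, a size that 6.57% and 6.77% of all genes reached in those strains. Falls of that size numbered 1 in XH7 and 0 in BSGX001, beside 5.88% and 2.03% of all genes. No member fell in BSGX001 at an unadjusted p under 0.05 apart from ATG10, at -0.37 on the log2 scale (adjusted p = 0.0842). DESeq2 also gave 0 falls, while upper-quartile scaling gave 2 and limma on FPKM 1. The summed level of the members was 1827 and 1734 CPM (counts scaled to the library size after TMM, a correction for library composition) at the GX stage of XH7, against 1504 and 1537 CPM at its X stage. In BSGX001 it was 3085 and 3034 CPM at the GX stage, against 1768 and 2076 CPM at the X stage. Neither pair of groups overlapped, but lack of overlap was common. Of all genes taken singly, 39.9% stood apart upwards and 34.7% downwards in XH7, and 38% and 41.1% in BSGX001.

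The strains shared 7 rises, against 10.2% of all genes that rose in both, those of ATG8, ATG4, ATG12, ATG11, ATG36, ATG15 and ATG22. ATG33 fell in XH7 and rose in BSGX001, and 17 members rose in BSGX001 without passing the test in XH7, beside 1.54% and 11.2% of all genes. ATG31, ATG5 and ATG10 rose in XH7 without passing in BSGX001, ATG13 and ATG27 fell there without passing in BSGX001, and ATG18 and ATG21 passed in neither. The shares of all genes with those patterns were 14.3%, 8.07% and 29.9%, in that order. Passing in 1 strain only does not show a difference between the strains, which was tested directly: the stage change was lower in XH7 for 15 members and higher for 1, ATG10. Over all genes, 14.2% had a lower and 15.4% a higher change in XH7. A difference of 2-fold or more was found for 7 members lower and 1 higher in XH7, beside 6.65% and 4.9% of all genes. The members' median difference was -0.50 on the log2 scale, against 0.05 for all genes tested. Without BSGX001 GX replicate 1 the change was lower in XH7 for 8 members, and without BSGX001 GX replicate 2 for 9. Over all genes the lower changes then numbered 490 and 489, against 838 with all libraries, so the calls of all genes dropped as well.

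**Figure D2:**
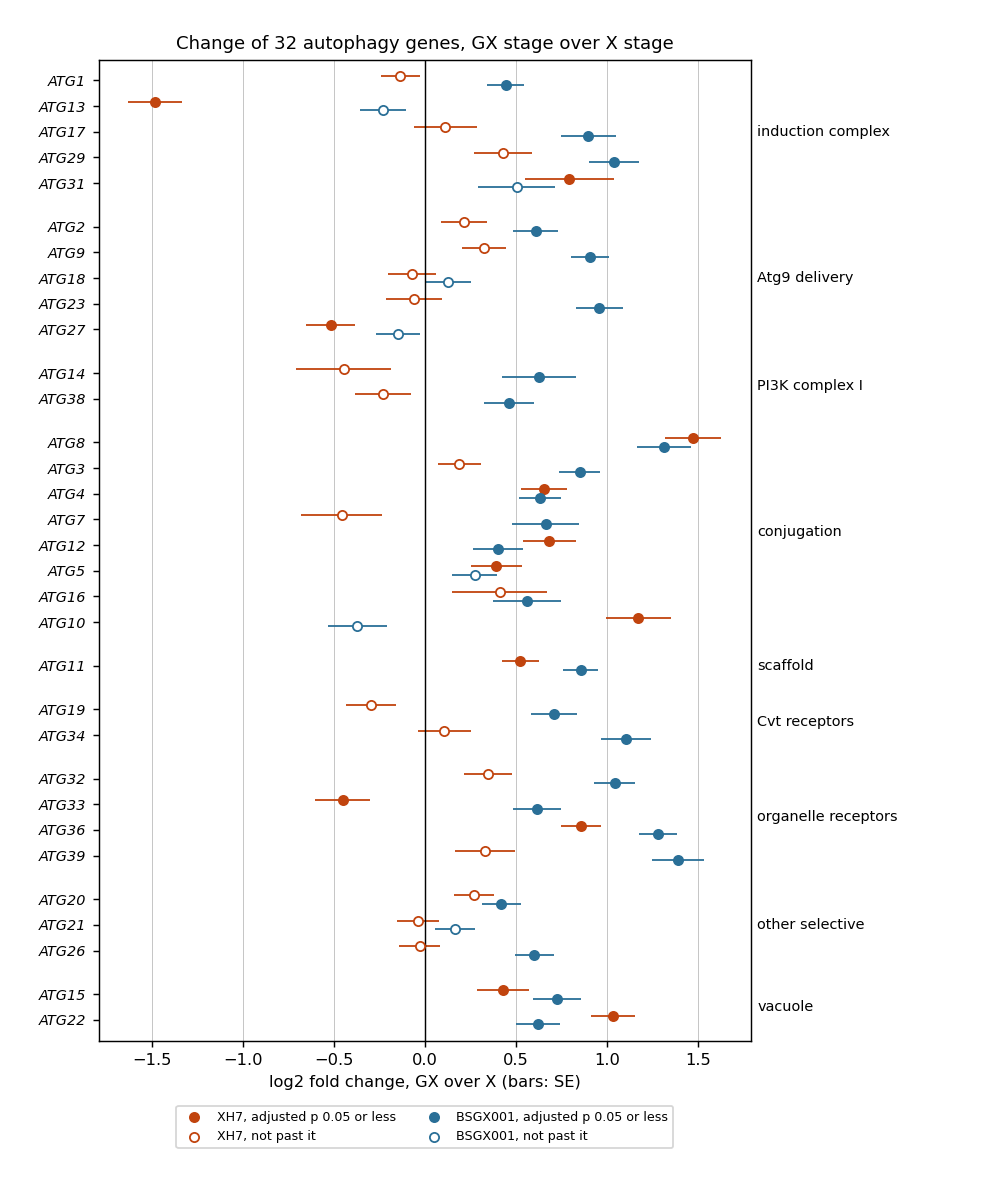
Log2 fold change of the 32 autophagy genes at the GX stage over the X stage in XH7 (orange) and BSGX001 (blue), grouped by role, with bars of 1 standard error and filled points at an adjusted p of 0.05 or less. In BSGX001 25 points are filled and all lie to the right of 0, whereas in XH7 10 filled points lie to the right and 3 to the left.

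These counts moved when single libraries were left out, at the GX stage of BSGX001 as well as at its X stage, and with the scaling. Without BSGX001 GX replicate 1 the members' median in BSGX001 was 0.59, and without GX replicate 2 it was 0.66. The BSGX001 duplicates at the X stage differed, with a median log2 difference of the members of -0.22, replicate 1 minus replicate 2. Without replicate 1, 19 members rose in BSGX001 with a median of 0.52, and without replicate 2, 25 rose with a median of 0.80. Rises over all genes then numbered 1046 and 1349, against 1360 with all libraries. In XH7, scaling by library totals in place of TMM moved the median of all genes up by 0.20 on the log2 scale, and then 17 members rose and 1 fell. Falls in XH7 numbered 5 without either BSGX001 X library, and 1 without XH7 X replicate 2 or XH7 GX replicate 2. Among all genes called in XH7, 54.8% were rises under TMM and 73.8% under library totals, and upper-quartile scaling gave a share of 35.4% in BSGX001, against 48.1% under TMM. Relative to the median gene, the members' median was 0.20 in XH7 and 0.64 in BSGX001 under each of these scalings, since a scaling shifts all genes alike.

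In the Atg1 kinase complex, which starts autophagosome formation, 1 of 5 members rose and 1 fell in XH7, and 3 rose in BSGX001. These counts, and those of the roles below, stand beside 26.7% of all genes rising and 22% falling in XH7. In BSGX001 the shares of all genes were 23% and 24.7%. ATG1, the kinase (YGL180W, chromosome VII, 160065 to 162758, plus strand), had 84.3 and 89.4 CPM at the GX stage, against 87.7 and 103 CPM at the X stage, in XH7 (log2 change -0.14, SE 0.11, adjusted p = 0.312), and the duplicates of the stages overlapped. Its levels in BSGX001 were 108 and 103 CPM at the GX stage, against 78.1 and 77.4 CPM at the X stage (log2 change 0.44, SE 0.10, adjusted p = 0.0067). The change was lower in XH7 (-0.58 on the log2 scale, SE 0.15, adjusted p = 0.0171), a difference that did not pass without either BSGX001 GX library or without XH7 X replicate 2, where the adjusted p was 0.0566 to 0.0788, or under library totals or limma on FPKM (0.0521 to 0.0723), and the rise in BSGX001 did not pass without GX replicate 1 (adjusted p = 0.0611). ATG13, the subunit that TORC1 phosphorylates to hold the kinase down (YPR185W, chromosome XVI, 907218 to 909434, plus strand), had 29.6 and 21.4 CPM at the GX stage, against 68.5 and 74.9 CPM at the X stage, in XH7 (log2 change -1.48, SE 0.15, adjusted p = 6.91e-05). This was the largest change of any member in XH7, to a level 2.80-fold lower. The BSGX001 libraries had 71.5 and 72.7 CPM at the GX stage, against 80.4 and 89.0 CPM at the X stage (log2 change -0.23, SE 0.13, adjusted p = 0.16), and the change was lower in XH7 (-1.25 on the log2 scale, SE 0.19, adjusted p = 0.00196), a call kept at the 0.05 limit under each of the 18 alternative fits.

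The other members of that complex form its scaffold. ATG17, which recruits the rest, changed by 0.11, adjusted p = 0.629, in XH7 and by 0.90, adjusted p = 0.00145, in BSGX001, both on the log2 scale, and the change was lower in XH7 (-0.79 on the log2 scale, SE 0.23, adjusted p = 0.0305). That difference was lost under 8 of 18 alternatives, among them library totals and the omission of BSGX001 GX replicate 1 or 2, XH7 X replicate 1 or 2 or XH7 GX replicate 2 (adjusted p up to 0.1002). ATG29 changed by 0.43, adjusted p = 0.0507, in XH7 and by 1.04, adjusted p = 0.000451, in BSGX001. Its last 24 bases overlap SET6 on the opposite strand, and SET6 changed by 0.02 in XH7 and by 0.70 in BSGX001 on the log2 scale. The strand of counting is not given in the sources used here, so reads of the overlap cannot be assigned. ATG31 changed by 0.79, adjusted p = 0.0237, in XH7 and by 0.50, adjusted p = 0.0771, in BSGX001, where the X stage duplicates stood apart at 22.5 and 37.9 CPM. Its rise in XH7 did not pass without X replicate 1, X replicate 2 or GX replicate 1 (adjusted p from 0.0795 to 0.134).

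Of the 5 members that bring Atg9 and lipid to the membrane, 0 rose and 1 fell in XH7, and 3 rose in BSGX001. ATG9, the membrane protein carried on the vesicles, changed by 0.32, adjusted p = 0.0505, in XH7 and by 0.91, adjusted p = 0.000218, in BSGX001. ATG23, which takes part in Atg9 transport, changed by -0.06, adjusted p = 0.759, in XH7 and by 0.96, adjusted p = 0.000455, in BSGX001, and for both genes the change was lower in XH7 (-0.58, adjusted p = 0.0229, for ATG9 and -1.02, adjusted p = 0.00541, for ATG23). The difference passed at the 0.05 limit under each of the 18 alternative fits for ATG23 but was lost for ATG9 under library totals, DESeq2 and limma and without BSGX001 GX replicate 1 or XH7 X replicate 1 (adjusted p up to 0.134). ATG2, the lipid transfer protein, rose in BSGX001 (0.61, adjusted p = 0.00336) and had a change of 0.22, adjusted p = 0.189, in XH7. ATG27, another Atg9 transport factor, fell in XH7 (-0.52, adjusted p = 0.0101), a call lost under library totals and limma on FPKM and without X replicate 2 or GX replicate 2, and its change in BSGX001 was -0.15, adjusted p = 0.334. ATG18, the partner of Atg2 that binds phosphatidylinositol 3-phosphate, had changes of -0.07 in XH7 and 0.12 in BSGX001 that did not pass.

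Both members of phosphatidylinositol 3-kinase complex I had a lower change in XH7 than in BSGX001. ATG14, the subunit that directs the kinase to autophagy (YBR128C, chromosome II, 493081 to 494115, minus strand), had 10.8 and 7.74 CPM at the GX stage, against 11.1 and 14.3 CPM at the X stage, in XH7 (log2 change -0.45, SE 0.26, adjusted p = 0.184). In BSGX001 it had 23.2 and 30.5 CPM at the GX stage, against 15.3 and 19.5 CPM at the X stage (log2 change 0.63, SE 0.21, adjusted p = 0.0315), a rise that did not pass without X replicate 1 or GX replicate 2 (adjusted p = 0.153 and 0.244), nor under upper-quartile scaling, the DESeq2 Wald test or limma on log2(FPKM + 0.1) (adjusted p from 0.0551 to 0.0596). The difference of the changes was -1.07 on the log2 scale, SE 0.33, adjusted p = 0.0374. It did not pass under library totals or limma on FPKM (adjusted p from 0.0577 to 0.0649) or without any of 4 libraries, BSGX001 X replicate 1, BSGX001 GX replicate 2, XH7 X replicate 2 and XH7 GX replicate 2 (adjusted p from 0.0724 to 0.141). ATG38, which holds the complex together, changed by -0.23, adjusted p = 0.237, in XH7 and by 0.46, adjusted p = 0.0215, in BSGX001, with a difference of -0.69, adjusted p = 0.0326. The difference was lost under 9 of 18 alternatives (adjusted p up to 0.118), 5 of them the omission of BSGX001 X replicate 1, BSGX001 GX replicate 1 or 2, XH7 X replicate 2 or XH7 GX replicate 2, and the rise in BSGX001 was lost under 5 of 19, among them the omission of BSGX001 X replicate 1 or GX replicate 1 or 2.

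The 8 genes of Atg8 and Atg12 conjugation held the largest rise of any role in XH7, with 5 rises in XH7 and 6 in BSGX001. ATG8 (YBL078C, chromosome II, 80378 to 80731, minus strand) had 125 and 105 CPM at the GX stage, against 47.1 and 36.2 CPM at the X stage, in XH7 (log2 change 1.47, SE 0.15, adjusted p = 8.96e-05). Its levels in BSGX001 were 99.4 and 99.2 CPM at the GX stage, against 35.9 and 44.3 CPM at the X stage (log2 change 1.31, SE 0.15, adjusted p = 0.000206). Transcript levels were thus 2.77-fold and 2.48-fold higher at the GX stage, and the difference between the strains did not pass (0.16 on the log2 scale, SE 0.21, adjusted p = 0.591), nor did that between the strains at either stage. ATG4, the protease that matures and releases Atg8, also rose in both strains, by 0.65, adjusted p = 0.00236, in XH7 and by 0.63, adjusted p = 0.00199, in BSGX001.

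ATG10, the enzyme that hands Atg12 to Atg5 (YLL042C, chromosome XII, 52087 to 52590, minus strand), was the only member with a higher stage change in XH7. It had 18.0 and 17.1 CPM at the GX stage, against 7.46 and 8.07 CPM at the X stage, in XH7 (log2 change 1.17, SE 0.18, adjusted p = 0.000602). The BSGX001 libraries had 9.81 and 9.10 CPM at the GX stage, against 11.5 and 13 CPM at the X stage (log2 change -0.37, SE 0.16, adjusted p = 0.0842), lower at the GX stage in both pairs but past the test only under upper-quartile scaling or limma on FPKM. The difference was 1.55 on the log2 scale, SE 0.24, adjusted p = 0.00196, and it passed at the 0.05 limit under each of the 18 alternative fits. Counts of ATG10 were low, from 35 to 113 in a library.

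ATG7, the enzyme that activates both Atg8 and Atg12 (YHR171W, chromosome VIII, 445713 to 447605, plus strand), had 26.6 and 18.4 CPM at the GX stage, against 30.5 and 31.8 CPM at the X stage, in XH7 (log2 change -0.46, SE 0.22, adjusted p = 0.112). In BSGX001 it had 74.0 and 66.6 CPM at the GX stage, against 36.4 and 52.6 CPM at the X stage (log2 change 0.66, SE 0.18, adjusted p = 0.0154). The duplicates of ATG7 stood apart at the GX stage of XH7 and at the X stage of BSGX001, and the rise in BSGX001 did not pass without its X replicate 1 or its GX replicate 1 (adjusted p = 0.0762 and 0.103). The difference was -1.12 on the log2 scale, SE 0.29, adjusted p = 0.0174. It did not pass without BSGX001 GX replicate 1, XH7 X replicate 2 or XH7 GX replicate 2 (adjusted p from 0.0548 to 0.0671).

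ATG5, the protein to which Atg12 is joined (YPL149W, chromosome XVI, 271310 to 272194, plus strand), had 42.0 and 55.3 CPM at the GX stage, against 39.7 and 34.5 CPM at the X stage, in XH7 (log2 change 0.39, SE 0.14, adjusted p = 0.0458). Its levels in BSGX001 were 89.8 and 91.9 CPM at the GX stage, against 76.3 and 74.1 CPM at the X stage (log2 change 0.27, SE 0.12, adjusted p = 0.0961). The rise in XH7 was lost under 11 of 19 alternatives, among them DESeq2, the replicate block and 6 of the 8 libraries left out in turn, namely BSGX001 X replicate 1, BSGX001 GX replicates 1 and 2, XH7 X replicates 1 and 2 and XH7 GX replicate 2, with adjusted p up to 0.283. ATG16, which links Atg12-Atg5 into the complex that guides Atg8 (YMR159C, chromosome XIII, 574476 to 574928, minus strand), had the fewest counts, from 21 to 103 in a library. It had 6.05 and 4.79 CPM at the GX stage, against 4.48 and 3.78 CPM at the X stage, in XH7 (log2 change 0.41, SE 0.26, adjusted p = 0.221). The BSGX001 libraries had 12.8 and 11.4 CPM at the GX stage, against 7.83 and 8.60 CPM at the X stage (log2 change 0.56, SE 0.19, adjusted p = 0.0333), a rise lost without any 1 of the 4 BSGX001 libraries (adjusted p from 0.0641 to 0.179), under upper-quartile scaling (0.0713) and under the DESeq2 Wald test (0.201). ATG3, which passes Atg8 to its lipid, had changes of 0.19, adjusted p = 0.22, in XH7 and 0.85, adjusted p = 0.000417, in BSGX001, with a lower change in XH7 (-0.66, adjusted p = 0.015, lost under limma on FPKM and without BSGX001 GX replicate 1, with adjusted p up to 0.0708). ATG12 rose in both strains, by 0.68, adjusted p = 0.00414, in XH7 and by 0.40, adjusted p = 0.0376, in BSGX001, where the rise was lost under DESeq2, upper-quartile scaling, the replicate block and without X replicate 1, GX replicate 1 or GX replicate 2 (adjusted p up to 0.197).

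**Figure D3:**
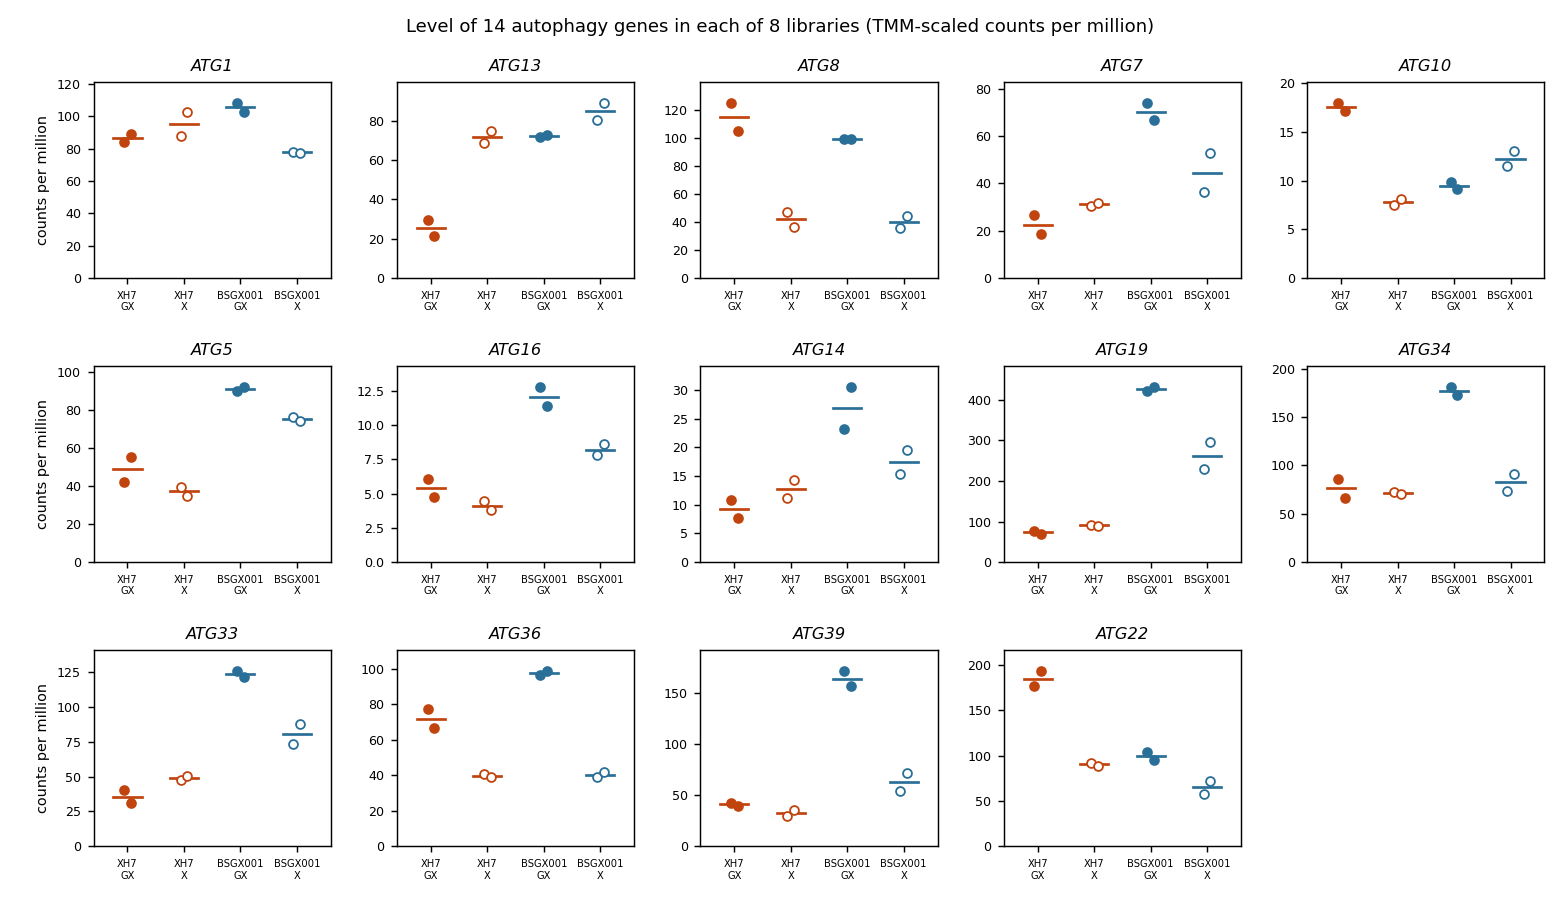
TMM-scaled CPM of 14 autophagy genes in each of the 8 libraries, with the GX stage filled and the X stage open, XH7 in orange, BSGX001 in blue and a line at the mean of each pair. ATG8 is high at the GX stage of both strains, ATG13 is lowest at the GX stage of XH7, and ATG19, ATG33 and ATG39 are highest at the GX stage of BSGX001.

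Among the selective factors, 2 of 10 rose and 1 fell in XH7, and 9 of 10 rose in BSGX001. Over all genes, 26.7% rose and 22% fell in XH7, so the share of selective factors that rose there was near the background. In BSGX001 23% of all genes rose. ATG11, the scaffold that gathers receptors and the Atg1 complex, rose in both strains, by 0.52, adjusted p = 0.00233, in XH7 and by 0.85, adjusted p = 0.000209, in BSGX001. The Cvt receptors ATG19 and ATG34 lie beside each other on chromosome XV, 1774 bases apart, and no member has a near-identical copy in the R64 genes. ATG19 (YOL082W, chromosome XV, 168727 to 169974, plus strand), which carries aminopeptidase and mannosidase precursors, had 77.2 and 70.4 CPM at the GX stage, against 91.7 and 89.8 CPM at the X stage, in XH7 (log2 change -0.30, SE 0.14, adjusted p = 0.0989). In BSGX001 it had 423 and 431 CPM at the GX stage, against 228 and 295 CPM at the X stage (log2 change 0.71, SE 0.13, adjusted p = 0.00192), and the difference was -1.0 on the log2 scale, SE 0.19, adjusted p = 0.00434. ATG34 (YOL083W, chromosome XV, 165714 to 166952, plus strand), which carries mannosidase under starvation, had 86.2 and 66.4 CPM at the GX stage, against 72.5 and 69.9 CPM at the X stage, in XH7 (log2 change 0.10, SE 0.15, adjusted p = 0.587). Its levels in BSGX001 were 181 and 173 CPM at the GX stage, against 73.9 and 90.7 CPM at the X stage (log2 change 1.10, SE 0.14, adjusted p = 0.000327), and the difference was -1.0 on the log2 scale, SE 0.20, adjusted p = 0.00608. Both receptors passed in BSGX001 and not in XH7, and both differences passed at the 0.05 limit under each of the 18 alternative fits. A limit of 2-fold was met by the difference of ATG19 and narrowly missed by that of ATG34.

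The 4 organelle receptors and factors all rose in BSGX001, 3 of them by 2-fold or more, while 1 rose and 1 fell in XH7. A rise of 2-fold or more was found for 6.77% of all genes in BSGX001. ATG39, the receptor for parts of the nuclear envelope (YLR312C, chromosome XII, 757637 to 758833, minus strand), had the largest rise of any member in BSGX001. It had 42.8 and 39.1 CPM at the GX stage, against 29.2 and 35.7 CPM at the X stage, in XH7 (log2 change 0.33, SE 0.17, adjusted p = 0.13). The BSGX001 libraries had 171 and 156 CPM at the GX stage, against 53.9 and 71.4 CPM at the X stage (log2 change 1.39, SE 0.14, adjusted p = 0.000121), and the difference was -1.06 on the log2 scale, SE 0.22, adjusted p = 0.00683. ATG36, the receptor for peroxisomes (YJL185C, chromosome X, 82095 to 82976, minus strand), rose in both strains. It had 77.3 and 66.6 CPM at the GX stage, against 40.7 and 39.0 CPM at the X stage, in XH7 (log2 change 0.85, SE 0.11, adjusted p = 0.000255). In BSGX001 it had 96.9 and 98.7 CPM at the GX stage, against 38.8 and 41.8 CPM at the X stage (log2 change 1.28, SE 0.10, adjusted p = 3.47e-05). The difference did not pass (-0.42 on the log2 scale, SE 0.15, adjusted p = 0.0597), except with DESeq2 size factors or without XH7 GX replicate 1 (adjusted p = 0.0409 and 0.0212).

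Both mitochondrial factors had a lower stage change in XH7 than in BSGX001. ATG33, a mitochondrial outer membrane protein that promotes mitophagy (YLR356W, chromosome XII, 840321 to 840914, plus strand), had 40.6 and 30.8 CPM at the GX stage, against 47.3 and 50.7 CPM at the X stage, in XH7 (log2 change -0.45, SE 0.15, adjusted p = 0.0323). Its levels in BSGX001 were 125 and 121 CPM at the GX stage, against 73.2 and 87.9 CPM at the X stage (log2 change 0.61, SE 0.13, adjusted p = 0.00449). Its fall in XH7 was lost under library totals and limma on FPKM and without BSGX001 GX replicate 1 or 2, XH7 X replicate 1 or 2 or XH7 GX replicate 2 (adjusted p from 0.0532 to 0.182), but the difference of -1.07 on the log2 scale, SE 0.20, adjusted p = 0.00441, held at the 0.05 limit under each of the 18 alternative fits. ATG32, the mitophagy receptor, changed by 0.34, adjusted p = 0.0558, in XH7 and by 1.04, adjusted p = 0.000161, in BSGX001, with a difference of -0.70, adjusted p = 0.0157, lost under limma on FPKM and without BSGX001 GX replicate 1 or 2 or XH7 X replicate 1 (adjusted p up to 0.0666). Of the other selective factors, the sorting nexin ATG20 and the sterol glucosyltransferase ATG26, which peroxisome breakdown needs in methylotrophic yeasts, passed in BSGX001 (0.42, adjusted p = 0.0109, and 0.60, adjusted p = 0.0018) and not in XH7 (0.27, adjusted p = 0.0701, and -0.03, adjusted p = 0.838). The rise of ATG20 was lost without X replicate 1 or GX replicate 2 of BSGX001, and the change of ATG26 was lower in XH7 (-0.63, adjusted p = 0.0145), a call lost under limma on FPKM and without BSGX001 GX replicate 2 or XH7 X replicate 2. ATG21, a Cvt factor that binds phosphatidylinositol 3-phosphate, had changes of -0.04 in XH7 and 0.16 in BSGX001 that did not pass.

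Both vacuolar members rose in both strains. ATG22, which exports amino acids from the vacuole (YCL038C, chromosome III, 54941 to 56527, minus strand), had 176 and 193 CPM at the GX stage, against 91.5 and 89.0 CPM at the X stage, in XH7 (log2 change 1.03, SE 0.12, adjusted p = 0.000158). The BSGX001 libraries had 104 and 95.4 CPM at the GX stage, against 57.9 and 72.0 CPM at the X stage (log2 change 0.62, SE 0.12, adjusted p = 0.00281), and the difference did not pass (0.41 on the log2 scale, SE 0.17, adjusted p = 0.0944). ATG15, the lipase that opens autophagic bodies, changed by 0.43, adjusted p = 0.0315, in XH7 and by 0.72, adjusted p = 0.00199, in BSGX001. The rise of ATG15 in XH7 was lost under 8 of 19 alternatives, 5 of them the omission of BSGX001 GX replicate 1 or 2, XH7 X replicate 1 or 2 or XH7 GX replicate 2 (adjusted p up to 0.191).

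The core machinery and the selective factors were set beside each other as a description with no test. In XH7 the median log2 change was 0.20 for the core and 0.19 for the selective factors. In BSGX001 it was 0.58 for the core and 0.78 for the selective factors. There 14 of 20 core members and 9 of 10 selective factors rose, beside 23% of all genes. The stage change was lower in XH7 for 9 core members and 6 selective factors, beside 14.2% of all genes, and the median differences were -0.49 and -0.66. Counting ATG23 and ATG27, which the Cvt pathway also needs, with the selective factors changed the median gap between core and selective factors in XH7 to 0.23, against 0.02 as first divided, and left that in BSGX001 at -0.20.

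At the GX stage, 23 members were lower and 2 higher in XH7 than in BSGX001, beside 32.6% and 33.4% of all genes tested. The median member differed by -0.83 on the log2 scale and the median gene by 0.01. At the X stage, 13 members were lower and 2 higher in XH7, beside 29% and 26.5% of all genes, and the median member differed by -0.27. At 2-fold or more, 11 members were lower in XH7 at the GX stage and 2 at the X stage, a size that 13.2% and 9.32% of all genes reached downwards. No member was higher in XH7 by that size at either stage, against 10.8% of all genes at the GX stage and 6.2% at the X stage. The comparisons of stages and of strains use the same 8 libraries and are not independent.

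**Figure D4:**
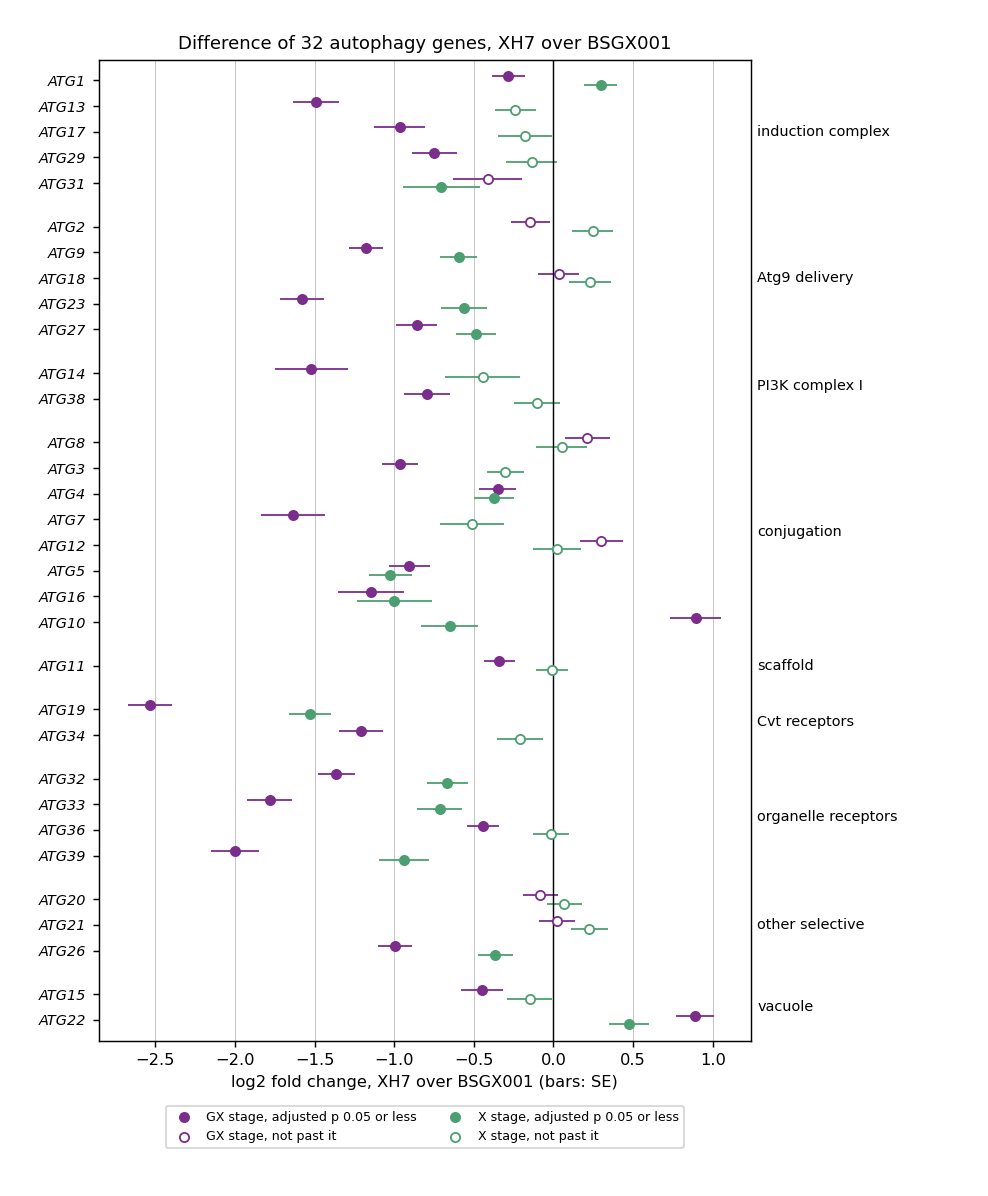
Log2 fold change of the 32 autophagy genes in XH7 over BSGX001 at the GX stage (purple) and the X stage (green), grouped by role, with bars of 1 standard error and filled points where the adjusted p was 0.05 or less. At the GX stage 23 filled points lie to the left of 0, down to ATG19 at -2.53, and only ATG10 and ATG22 are filled to the right.

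ATG19 was the member furthest apart between the strains. It had 77.2 and 70.4 CPM in XH7, against 423 and 431 CPM in BSGX001, at the GX stage, and was 5.78-fold lower in XH7 (log2 change -2.53, SE 0.14, adjusted p = 7.74e-07). At the X stage it was 2.88-fold lower (log2 change -1.53, SE 0.13, adjusted p = 2.41e-05). ATG39 followed at the GX stage (log2 change -2.0, SE 0.15, adjusted p = 4.97e-06) and was also lower at the X stage (log2 change -0.94, SE 0.16, adjusted p = 0.000904). No library of XH7 reached the level of a BSGX001 library for either gene at the same stage. Such a lack of overlap was common. Of all genes taken singly, 41.7% stood apart downwards and 43.1% upwards in XH7 at the GX stage. At the X stage the shares were 41.4% and 37.9%.

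ATG33 and ATG7 came next at the GX stage, at -1.78, adjusted p = 7.04e-06, and -1.63, adjusted p = 9.38e-05. At the X stage ATG33 was lower in XH7 (-0.71, adjusted p = 0.00211), while ATG7 did not pass (-0.51, adjusted p = 0.0551). ATG5 and ATG16, partners in 1 complex, were lower in XH7 at both stages. For ATG5 the log2 difference was -0.91, adjusted p = 0.000236, at the GX stage and -1.02, adjusted p = 0.000245, at the X stage. For ATG16 it was -1.15, adjusted p = 0.000947, at the GX stage and -1.0, adjusted p = 0.00555, at the X stage, the last not passing without XH7 X replicate 2 (adjusted p = 0.0588).

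ATG22 was higher in XH7 at both stages (0.89, adjusted p = 0.000145, at GX and 0.47, adjusted p = 0.00903, at X), the X stage call being lost under library totals (log2 difference 0.19) and limma on FPKM. ATG10 was higher at the GX stage (0.89, adjusted p = 0.000919) and lower at the X stage (-0.65, adjusted p = 0.0118), the X stage call being lost under the DESeq2 Wald test and without BSGX001 X replicate 2 or XH7 X replicate 1. ATG1 was lower at the GX stage (-0.28, adjusted p = 0.0352) and higher at the X stage (0.30, adjusted p = 0.0363), but the X stage call was lost under 10 of 19 alternatives and turned to -0.0039 with limma on log2(FPKM + 1), and the GX stage call was lost under 4, the DESeq2 Wald test and the omission of either BSGX001 GX library or of XH7 GX replicate 1. The X stage losses included the omission of either BSGX001 X library, either BSGX001 GX library or XH7 X replicate 2 (adjusted p up to 0.209). ATG13 was lower at the GX stage (-1.49, adjusted p = 2.13e-05) and did not pass at the X stage (-0.24, adjusted p = 0.147). ATG8 did not pass at the GX stage (0.21, adjusted p = 0.209) or at the X stage (0.05, adjusted p = 0.805). The X stage counts also shifted with the scaling, to 24 lower and 0 higher under library totals, which moved the median of all genes by -0.29 on the log2 scale and the share of rises among called genes to 24.8%, against 47.7% under TMM. Without BSGX001 X replicate 2, 7 members were lower at the X stage, and without XH7 X replicate 1, 8 were, while all genes lower in XH7 then numbered 1450 and 1243, against 1719 with all libraries.

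A list of 62 genes that work with the members was chosen with earlier results known. Calls for single genes of this list come from the edgeR fit with TMM only and were not checked under the alternative fits. In XH7 15 of them rose and 16 fell, near the 26.7% and 22% of all genes. In BSGX001 24 rose and 4 fell, where 23% of all genes rose and 24.7% fell. The median log2 change of the list was -0.06 in XH7 and 0.09 in BSGX001. The counts of the shorter lists are given against the same shares, and those for XH7 of the regulators of transcription, TORC1, tethering and fusion, and the partners of selective autophagy were near them. All 4 other genes with an ATG number or alias rose in BSGX001, led by ICY2 (1.52, adjusted p = 0.000355) and ATG42 (0.91, adjusted p = 0.000527), a vacuolar carboxypeptidase, and 1 rose in XH7, SNX4 (0.39, adjusted p = 0.0324), a sorting nexin. Of 7 vacuolar hydrolases and Cvt cargo proteins, 1 rose and 2 fell in XH7 and 5 rose in BSGX001. PRB1, the vacuolar protease B, rose in both strains, by 1.28, adjusted p = 0.000141, in XH7 and by 1.34, adjusted p = 0.000166, in BSGX001. APE1, the aminopeptidase carried by Atg19, fell in XH7 (-0.70, adjusted p = 0.0341) and did not pass in BSGX001 (0.10, adjusted p = 0.741). AMS1, the mannosidase carried by Atg19 and Atg34, rose in BSGX001 (1.13, adjusted p = 0.00225) and did not pass in XH7 (0.35, adjusted p = 0.202).

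Among 12 regulators of ATG transcription and induction, 2 rose and 3 fell in XH7, and 6 rose and 1 fell in BSGX001. UME6, the repressor that binds URS1, fell in XH7 (-0.44, adjusted p = 0.0291) and rose in BSGX001 (0.55, adjusted p = 0.00743), with a difference of -0.99, adjusted p = 0.00536. RPH1, a repressor of ATG genes, rose in XH7 (0.40, adjusted p = 0.0272), and PHO23, a subunit of the Rpd3 deacetylase complex, rose in BSGX001 (0.81, adjusted p = 0.000548). DAL80, a GATA repressor, rose in BSGX001 (1.39, adjusted p = 0.00191), GLN3, a GATA activator, fell in XH7 (-0.44, adjusted p = 0.0109), and MSN2 fell in BSGX001 (-0.64, adjusted p = 0.00116).

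Of 11 genes of TORC1 and its regulators, 3 rose and 3 fell in XH7, and 2 rose and 1 fell in BSGX001. LST8, a TORC1 subunit, rose by 0.95, adjusted p = 0.000142, in XH7 and by 0.95, adjusted p = 0.00014, in BSGX001, and NPR3, part of a complex that inhibits TORC1, fell in both (-0.83, adjusted p = 0.000196, in XH7 and -0.62, adjusted p = 0.000877, in BSGX001). TOR1, the kinase, fell in XH7 (-0.51, adjusted p = 0.00231). The largest rise of this list in XH7, at 1.15 on the log2 scale, was that of another gene than LST8. It passed the test and was the only rise of 2-fold or more in the list, but the gene is not named here. Of the 4 partners of phosphatidylinositol 3-kinase, VPS38, the subunit of complex II, rose in XH7 (0.77, adjusted p = 0.000854), VPS15 fell there (-0.72, adjusted p = 0.034), and VPS30 rose in BSGX001 (0.32, adjusted p = 0.0469).

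Of 15 genes of tethering and fusion with the vacuole, 4 rose and 5 fell in XH7, and 1 rose and 1 fell in BSGX001. The rises in XH7 were led by the SNARE YKT6 (1.05, adjusted p = 8.6e-05) and the falls by VPS11 (-0.70, adjusted p = 0.0108), a subunit of the tethering complexes. MON1 and YPT7, which mark the membrane for fusion, rose (0.33, adjusted p = 0.045) and fell (-0.38, adjusted p = 0.0179) in BSGX001. Of 9 partners of selective autophagy, 3 rose and 2 fell in XH7, and 5 rose and 1 fell in BSGX001. FIS1, a mitochondrial fission protein, rose in both strains (0.77, adjusted p = 0.00137, in XH7 and 0.60, adjusted p = 0.00395, in BSGX001), and PEX3, to which Atg36 binds on peroxisomes, rose in BSGX001 (0.48, adjusted p = 0.0045).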

How the data were processed

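The authors extracted total RNA, selected mRNA with oligo(dT) and sequenced it on an Illumina HiSeq instrument. The deposited tables give, per gene and sample, an expected count (an estimated, unscaled number of fragments) and an FPKM value scaled by the authors for gene length and library total. The submitters' notes name build R64. The aligner and counter are not named there, and the strandedness is not given in the sources used here. Combined FPKM tables that repeat the sample tables, and comparison tables with mean FPKM, log2 ratios and a probability score, were not used.

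Expected counts were rounded and fitted in edgeR 4.0.16 (R 4.3.3) with TMM scaling (factors 0.857 to 1.08), filterByExpr at a minimum count of 10, 4 groups and no covariate. Quasi-likelihood tests were adjusted by Benjamini-Hochberg over 5921 genes and passed at 0.05. Fold changes, SE and the difference of the stage changes come from this fit, and with 2 samples a group they cover the spread of duplicate fermentations only. The fits were also run on simulated counts with known changes set at the GX stage of BSGX001 only. Far fewer genes were changed there than were called here, so that run does not bear on the scaling or the calls. Identifiers were matched by locus tag (5591 of 6170). Member lengths equalled the R64 coding span for 30 of 32, and coordinates are RefSeq R64. BLAST+ 2.17.0 found no member with a copy of 95% identity over 80% of its length, and motifs were searched with exact matching.

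The text gives every sample's value for the 4 members with the largest passing change in each of 5 comparisons and for ATG1 and ATG8, and for pathway lists at most 2 rises and 2 falls per strain. The members, the lists and these rules were chosen with earlier results of these data known. Alternatives tried were scaling by the upper quartile, by DESeq2 size factors or by library totals, a stricter filter (10 CPM in 2 samples) or none, the Wald test of DESeq2 1.42.0, limma 3.58.1 on log2(FPKM + 1) and log2(FPKM + 0.1), the compared groups alone, a replicate block, each library left out, a 2-fold limit, an adjusted p of 0.01 and ATG23 and ATG27 counted with the selective factors.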

Additional observations from a re-analysis of the deposited data

Results flagged for a closer look

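For 16 of the 32 autophagy genes the change from the X stage to the GX stage differed between the strains by the test of the difference itself (edgeR quasi-likelihood test, adjusted p of 0.05 or less). Over all genes tested, 14.2% had a lower and 15.4% a higher change in XH7 by the same test. In the core machinery, the stage change in XH7 minus that in BSGX001 was, on the log2 scale, -0.58 for ATG1, -1.25 for ATG13, -0.79 for ATG17, -0.58 for ATG9 and -1.02 for ATG23. It was -1.07 for ATG14, -0.69 for ATG38, -0.66 for ATG3 and -1.12 for ATG7, and ATG10 had the only positive value, 1.55. Among the selective factors it was -1.0 for ATG19, -1.0 for ATG34, -0.70 for ATG32, -1.07 for ATG33, -1.06 for ATG39 and -0.63 for ATG26. Of these 16 differences, 7 passed at the 0.05 limit under each of the 18 alternative fits, those of ATG13, ATG23, ATG10, ATG19, ATG34, ATG33 and ATG39. A limit of 2-fold was met by all of these but ATG34.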

How the results depend on the processing

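Counts of members at a limit of 2-fold were 3 rises and 1 fall in XH7 and 6 rises in BSGX001. At that limit the stage change was lower in XH7 for 7 members and higher for 1. In XH7 0 members were higher and 11 lower at the GX stage, and 0 higher and 2 lower at the X stage. The shares of all genes at 2-fold are given above beside the same counts. At an adjusted p of 0.01, 1 member fell in XH7, 6 stage changes were lower in XH7 and 1 member was higher in XH7 at the X stage. With upper-quartile scaling 2 members fell in BSGX001 (median 0.51), the XH7 median was 0.16, and 1 member was higher in XH7 at the X stage, as it was with the DESeq2 Wald test and with the compared groups alone. Library totals gave 17 rises and 1 fall in XH7 (median 0.44), 2 higher stage changes (median -0.32), 0 higher and 24 lower at the X stage (median -0.56) and a median of -0.93 at the GX stage. Under limma on log2(FPKM + 1) and log2(FPKM + 0.1), 1 member fell in BSGX001, 17 rose and 1 fell in XH7 (medians 0.42 and 0.44), 2 stage changes were higher and 7 lower in XH7 (medians -0.31 and -0.32), 0 members were higher and 24 lower at the X stage (medians -0.55 and -0.56), and the GX stage medians were -0.94 and -0.95. ATG1 at the X stage turned to -0.0039 and -0.0041 there. The share of rises among all called differences of stage changes was 73.2% under library totals, against 52.1% under TMM. With ATG23 and ATG27 among the selective factors, core minus selective was 0.23 in XH7. A change of scaling shifts all genes alike by construction, and FPKM is itself scaled by library total, without TMM. Over all genes, limma on log2(FPKM + 1) gave 2312 rises and 799 falls in XH7, against 2299 and 817 under library totals. These settings thus share a scaling and are not separate checks. The cause of the other shifts was not tested.

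Leaving out 1 library at a time gave 1 to 5 falls in XH7, a BSGX001 median of 0.52 to 0.80, 1 to 2 higher and 8 to 17 lower stage changes in XH7, a GX stage median of -0.88 to -0.72, 1 to 3 higher and 7 to 15 lower at the X stage (median -0.37 to -0.17), and a core minus selective gap in the difference of 0.12 to 0.27. Without 1 library a group is left with 1 sample, assumed to vary like the others. The calls over all genes also moved with the library left out, so the shifts of these counts are not particular to the members.

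Same-numbered samples share only a number: their deviations correlated at -0.28 between the XH7 stages and -0.03 between the BSGX001 stages. The replicate block gave 9 rises in XH7, 24 in BSGX001 and 1 member higher in XH7 at the X stage. A block with the XH7 GX numbers crossed, chosen after seeing the data, gave 11 rises and 3 falls in XH7 and 26 rises in BSGX001. Members with few counts, such as ATG16 and ATG10, and 2 fermentations a group limit the precision.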
